A study of Mus musculus with 60 samples.

Results

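The genes for the proteins of the mitochondrial ribosome were examined in the kidneys of mice with a Cre-driven inactivation of Bmal1 in the renal tubule and of their controls. Members were the genes whose symbol starts with Mrpl or Mrps and a digit, without pseudogenes, that reached at least 1 CPM (a count scaled to the size of its library) in at least 1 of the 60 samples. Of 15546 retained genes, 77 were members, 48 with an Mrpl symbol and 29 with an Mrps symbol. Beyond this floor of 1 CPM, the rule used neither expression levels nor differences between genotypes. It was set with earlier results of these data known.

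The mitochondrial ribosome (mitoribosome) translates the mRNAs that the mitochondrial genome encodes, which are core subunits of the respiratory chain and of the ATP synthase. Its ribosomal RNAs come from the mitochondrial genome, whereas its proteins are encoded in the nucleus, translated in the cytoplasm, and imported. Some of these proteins have a counterpart in bacterial ribosomes and others were added during the evolution of mitochondria. The tubule of the kidney is rich in mitochondria, because the reabsorption of solutes uses much ATP.

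The data are counts from 60 male mice on a C57BL/6J background, 5 of each genotype at each of 6 zeitgeber times (ZT0, ZT4, ZT8, ZT12, ZT16, and ZT20) under 12 h of light and 12 h of darkness. More mice had been sequenced, and per the methods the choice of these 60 rested on RNA integrity and on how close a sample lay to its replicates in PCA or MDS plots. The cKOt mice carried floxed Bmal1 alleles (Bmal1lox/lox) with the transgenes Pax8-rtTA and LC-1 Cre, which express Cre in tubular cells in the presence of doxycycline. The control mice were Bmal1lox/lox littermates, and both genotypes drank doxycycline (2 mg/ml) with sucrose (20 mg/ml) for 2 weeks from an age of 8 weeks. Kidneys were taken 4 weeks after the treatment had ended. Cells outside the tubule keep Bmal1 in cKOt mice. Tissue is labelled as renal tubule, but RNA came from frozen pieces of whole kidney according to the methods.

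Gene counts summed to 17791420 in the shallowest library and 20906706 in the deepest. The 7 proximal tubule markers summed to 9560 to 13146 CPM in control and 9510 to 14706 CPM in cKOt mice, and 4 podocyte markers to 246 to 373 and 269 to 367 CPM. The sums were 249.3 to 325 and 228 to 321 CPM for endothelium, 42.5 to 162 and 55.6 to 144 CPM for fibroblasts, and 127 to 255 and 112 to 211 CPM for macrophages, so cells outside the tubule were present. By edgeR's quasi-likelihood test, 4 of 4 endothelial, 4 of 4 fibroblast, and 4 of 5 macrophage markers were lower in cKOt mice. Of 4 podocyte markers, 1 was higher and 0 were lower. The part of these cells in the results was not tested. Tubule markers moved as well, with 3 of 7 proximal tubule markers higher and 3 lower, and 2 of 3 thick ascending limb markers higher and 1 lower. For the distal convoluted tubule, 2 of 3 markers were higher, and for the collecting duct, 2 of 6 were higher and 2 lower. The thick ascending limb sum was 2403 to 5250 CPM in control and 3180 to 4702 CPM in cKOt mice, and that of the distal convoluted tubule 843 to 1289 and 1003 to 1495 CPM. Arntl, the gene symbol of Bmal1, was 48.4 ± 10.2 CPM at ZT0 and 2.77 ± 1.54 CPM at ZT12 in control mice, against 24.4 ± 1.56 and 17.4 ± 2.01 CPM in cKOt mice (mean ± SD of 5 mice). The level in cKOt mice was thus lower at ZT0 and higher at ZT12, and counts over the whole gene do not show the deletion. In bulk tissue, fewer cells of a type and less RNA per cell cannot be told apart.

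Members were low to moderately expressed. Levels are compared between genes only per kilobase of annotated exon, and in control mice they ranged from 1.32 to 138 CPM per kilobase with a median of 20.2 over the 77 members. The highest was Mrpl42, a large subunit protein without a bacterial counterpart, at 138 ± 9.45 CPM per kilobase (SD, n = 30). Mrpl12, which forms the L7/L12 stalk that recruits translation factors, followed with 88.4 ± 12.0 CPM per kilobase (SD, n = 30), and Mrps21 with 87.2 ± 8.44 CPM per kilobase (SD, n = 30). The last 2 overlapped within their SD, and Mrpl42 stood above both. At the lower end were Mrps25 with 4.11 ± 0.479, Mrpl57 with 3.38 ± 0.463, and Mrpl23, a protein at the exit of the nascent peptide tunnel, with 1.32 ± 0.356 CPM per kilobase (SD, n = 30 each). Mrps25 and Mrpl57 overlapped within their SD as well, whereas Mrpl23 lay below them. Mrpl23 had only 11 to 37 counts per mouse, so its values carry more counting error than those of the other members. Its processed pseudogene Mrpl23-ps1 had at most 10 counts in any mouse. Reads that align to both are left out of the counts, so the level of Mrpl23 may be too low. Exon lengths of annotated transcripts that the kidney may not use lower a level per kilobase, so the order is approximate.

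The spread within groups was that of mice selected in part for closeness to their replicates. The SD within a group was 7.63% of the mean for the median member, from 4.24% for Mrpl9 to 22.3% for Mrpl52. Together, the members took 0.253% to 0.290% of the gene counts of a control mouse and 0.258% to 0.324% of those of a cKOt mouse. After TMM normalization, which scales libraries by the bulk of genes, their summed level was 2816 ± 114 CPM for the 30 control mice and 2841 ± 132 CPM for the 30 cKOt mice (SD), and these ranges overlapped. Mitochondrially encoded RNAs held 8.88% to 11.4% of the gene counts in control and 7.49% to 10.0% in cKOt mice, which enters the raw shares. Among the counts outside mitochondrially encoded RNAs, the members took 0.304% ± 0.00939 in control and 0.320% ± 0.0161 in cKOt mice (SD over 30 mice each), so most of the difference in raw shares remained.

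Mean expression over the 6 time points differed between genotypes for 38 of 77 members (49.4%), at an adjusted p below 0.05 (edgeR's quasi-likelihood test, Benjamini-Hochberg adjustment over all retained genes). The share among all retained genes was 50%. Of the members, 21 were higher in cKOt mice, beside 26.8% of all genes, and 17 were lower, beside 23.2%. Thus, members were called about as often as other genes in either direction. The median log2 fold change was 0.011 over the members and 0.012 over all genes. Differences were small, from 0.05 to 0.33 on the log2 scale among the higher members and from -0.24 to -0.05 among the lower ones. A change above 1.2-fold was reached by 1 member, Mrps35, whereas 16.1% of all genes were called with such a change. The count of lower members fell to 11 without RUVs factors, and to 9 without replicate 2 of each group. Calls over all genes, in either direction, fell as well, from 7778 of 15546 to 6380 of 15546 and 6781 of 15466.

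**Figure D1:**
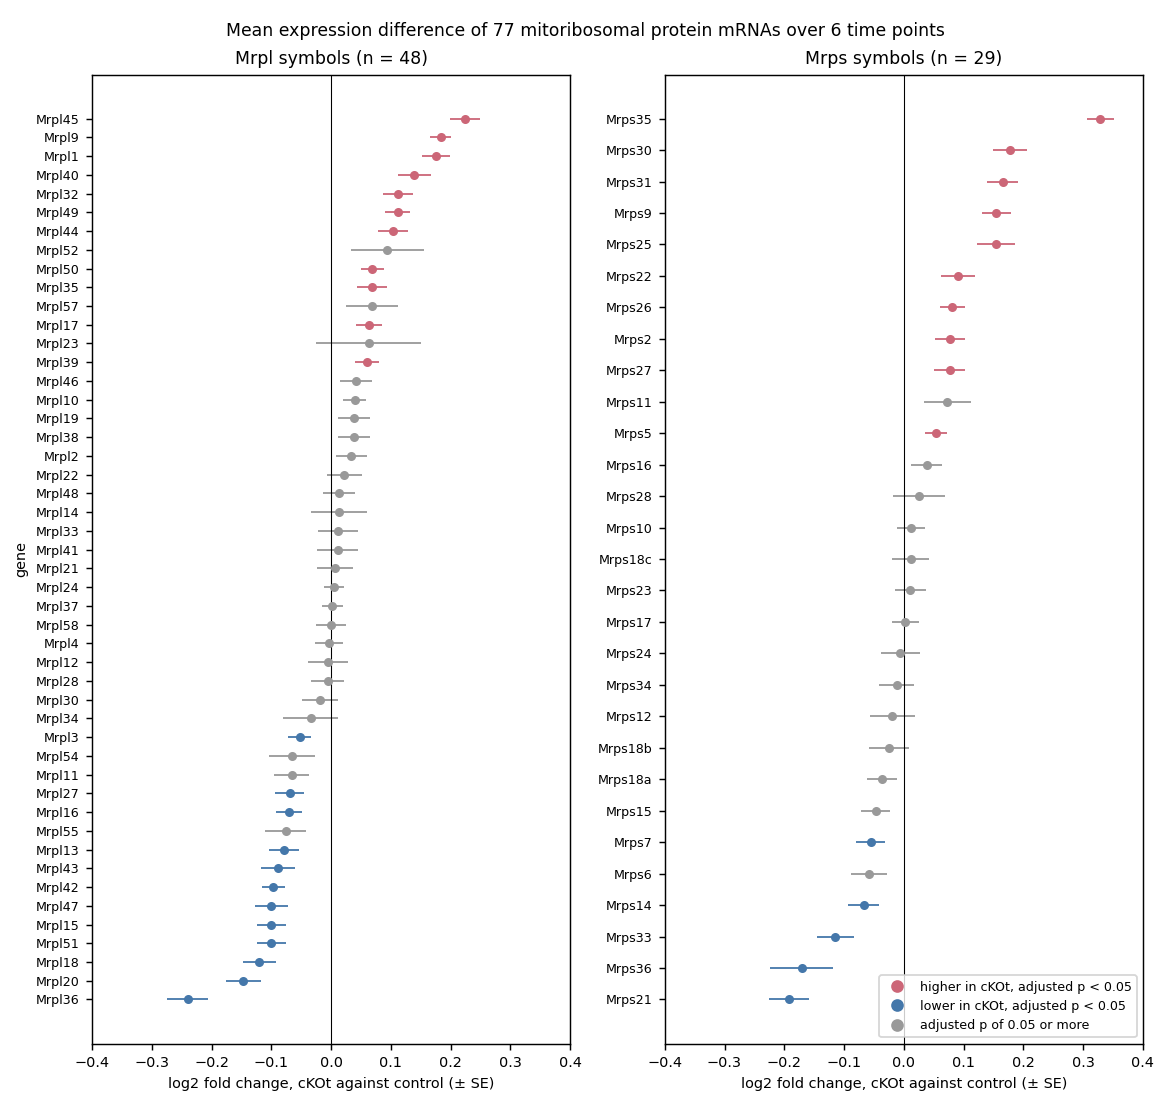
The log2 fold change of each of the 77 members is plotted on the x axis with its SE, cKOt against control mice over 6 time points, separately for Mrpl and Mrps symbols. Mrps35 at 0.33 and Mrpl45 at 0.22 are the largest increases, Mrpl36 at -0.24 and Mrps21 at -0.19 the largest decreases, and most members lie between -0.1 and 0.1.

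The largest increase was that of Mrps35, a small subunit protein without a bacterial counterpart (chromosome 6, 147042764 to 147073991, GRCm38). Its mRNA was 41.6 to 59.7 CPM in control mice with a median of 51.7, and 56.0 to 73.7 CPM with a median of 65.5 in cKOt mice (n = 30 each). The ranges met only between 56.0 and 59.7 CPM. The log2 fold change was 0.33 ± 0.02 (SE, adjusted p = 1.8e-18), and it ranged from 0.32 to 0.35 over 14 alternative analyses.

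At ZT8, the 5 control mice had 51.4, 48.5, 51.9, 47.3, and 53.5 CPM of Mrps35, and the 5 cKOt mice had 65.3, 66.9, 68.6, 59.7, and 59.3 CPM. Every cKOt mouse lay above every control mouse. The same held at 5 of 6 time points, and at ZT20 there was overlap between 46.9 to 59.7 CPM in control and 58.7 to 71.1 CPM in cKOt mice. Mrps35 was past the threshold at each of the 6 time points, with log2 fold changes from 0.28 at ZT4 to 0.37 at ZT16.

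Mrpl45, a mitochondria-specific protein at the tunnel exit that contacts the inner membrane, was next (chromosome 11, 97315716 to 97329920). It was 41.1 to 57.0 CPM in control mice, against 49.4 to 64.1 CPM in cKOt mice, so the ranges overlapped. The medians were 47.0 and 55.0 CPM, and the log2 fold change was 0.22 ± 0.02 (SE, n = 30 each, edgeR adjusted p = 3.8e-11).

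Mrpl9, a large subunit protein with a bacterial counterpart (chromosome 3, 94443318 to 94451130), was 47.1 to 58.4 CPM with a median of 52.3 in control mice. In cKOt mice it was 54.0 to 66.1 CPM with a median of 59.2. At ZT8 the control mice had 50.4, 47.1, 52.7, 52.6, and 55.8 CPM and the cKOt mice 64.9, 60.3, 64.4, 61.0, and 60.7 CPM, without overlap. ZT8 had the largest difference, the ranges were separate at 4 of 6 time points, and ZT16 (0.10, adjusted p = 0.109) and ZT20 (0.11, adjusted p = 0.0836) did not pass edgeR's quasi-likelihood test. Its log2 fold change was 0.18 ± 0.02 (SE, n = 30 each, edgeR adjusted p = 3.5e-13), the smallest error among these increases.

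Mrps30 and Mrpl1 completed the 5 largest increases. Mrps30 carries a small subunit symbol but sits in the large subunit of the mitoribosome, and it was 12.0 to 18.2 CPM in control and 12.7 to 22.5 CPM in cKOt mice. Mrpl1, a protein of the mobile L1 stalk, was 23.0 to 34.7 and 26.9 to 41.5 CPM. The ranges of both overlapped. The log2 fold changes were 0.18 ± 0.03 for Mrps30 and 0.18 ± 0.02 for Mrpl1 (SE, n = 30 each, edgeR adjusted p = 4.75e-07 and 6.5e-09).

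Mrpl36 had the largest decrease (chromosome 13, 73328513 to 73332178). It encodes a small zinc-binding protein of the large subunit with a bacterial counterpart. Its mRNA was 17.0 to 31.8 CPM with a median of 21.0 in control mice and 12.7 to 21.7 CPM with a median of 18.4 in cKOt mice. At ZT0 the control mice had 26.0, 23.4, 22.8, 22.3, and 23.3 CPM and the cKOt mice 20.2, 18.4, 17.7, 18.8, and 19.4 CPM. The 2 genotypes did not overlap at that time point, with the cKOt mice lower, and they overlapped at the other 5. The log2 fold change was -0.24 ± 0.03 (SE, n = 30 each, edgeR adjusted p = 4.1e-08), and the member was past the threshold at 5 time points, all but ZT16.

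Mrps21, a small subunit protein with a bacterial counterpart, was 41.2 to 61.1 CPM in control and 32.4 to 50.6 CPM in cKOt mice, with medians of 48.9 and 42.2. Mrpl20, which binds ribosomal RNA of the large subunit, was 57.2 to 79.3 and 51.1 to 76.98 CPM. Mrpl18, a protein of the central protuberance, was 39.1 to 54.8 and 35.2 to 51.8 CPM. In all 3, the lowest mice were cKOt mice and the ranges overlapped. Their log2 fold changes were -0.19 ± 0.03, -0.15 ± 0.03, and -0.12 ± 0.03 (SE, n = 30 each, edgeR adjusted p = 3.0e-06, 3.8e-05, and 0.00021).

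Mrps36 was the remaining one of the 5 largest decreases. Despite its symbol, its protein is known as a subunit of the 2-oxoglutarate dehydrogenase complex and is not part of the mitoribosome. It was 10.9 to 18.9 CPM in control and 8.55 to 18.1 CPM in cKOt mice, and most of the ranges overlapped. The log2 fold change was -0.17 ± 0.05 (SE, n = 30 each, edgeR adjusted p = 0.0060), the largest error among the named members that were called. Without replicate 2 of each group, it was -0.12 and did not pass (adjusted p = 0.0992, edgeR). Processed pseudogenes of Mrps36 are annotated, with at most 7 counts in any mouse. Reads that align to both are left out of the counts, so the level of Mrps36 may be too low.

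**Figure D2:**
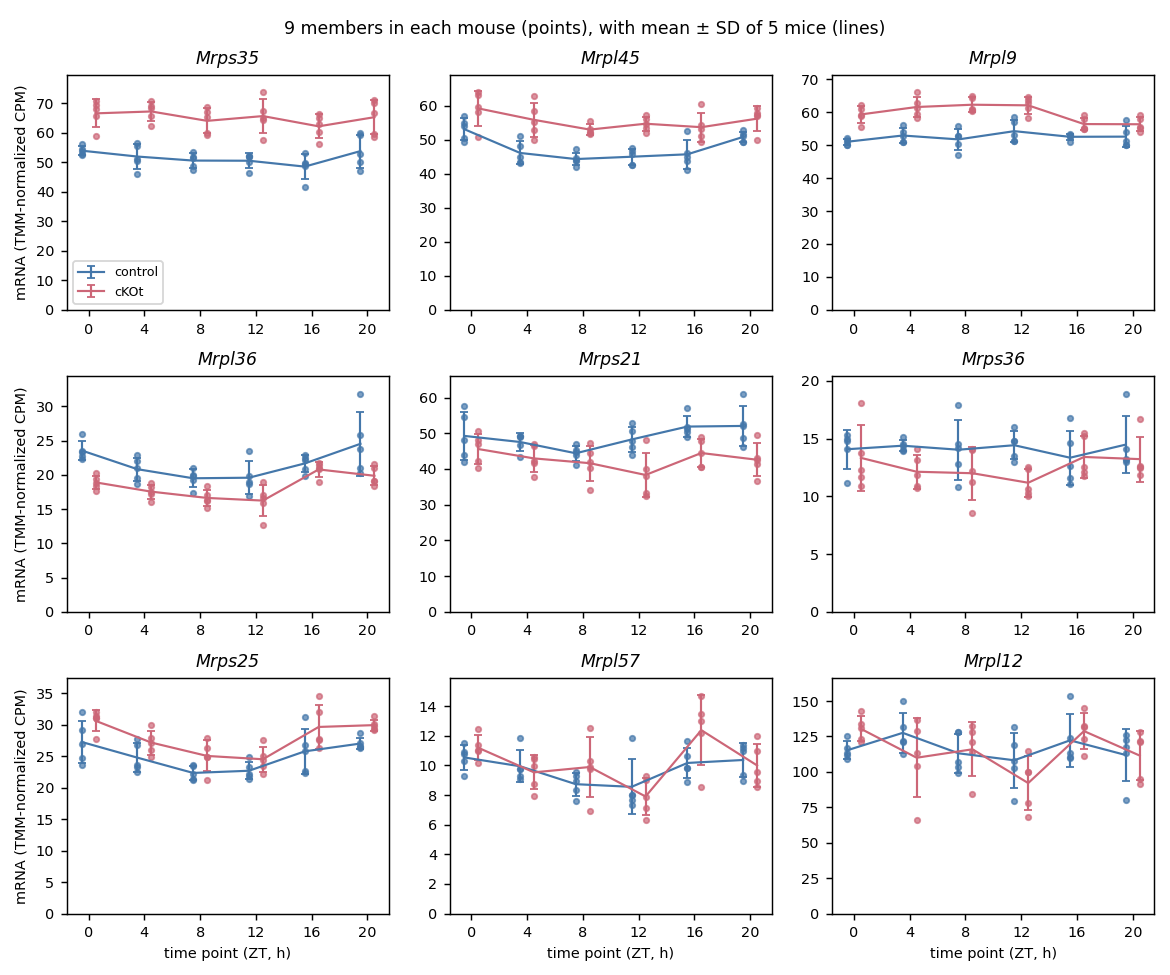
TMM-normalized CPM (y axis) of 9 members is plotted by time point (x axis, ZT in h) for each of 60 mice as points, with mean ± SD of 5 mice as lines. For Mrps35 the cKOt mice lie above the control mice at 5 time points without overlap, for Mrpl36 they lie lower at most times, and Mrps25 and Mrpl57 rise toward ZT16 to ZT0 in both genotypes.

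Sequences around the start of transcription are shown for the largest decrease, for an increase with a repeated motif, and for the only pair of members that share a start region. They cover 250 bases before and 50 bases after the annotated start (RefSeq, GRCm38.p6, strand of the gene), and windows were present for 68 of the 77 members. The RefSeq start can differ from the start of the gene in the annotation used for the counts. Capitals mark matches, on either strand, to CACGTG (the E-box that BMAL1 and CLOCK bind), CACGTT, GCATGCGC (bound by NRF1), CCGGAAG (ETS factors), AAGATGG (YY1), AGGTCA (ROR and REV-ERB), or TTATGTAA (D-box). The window of Mrpl36 is chr13:73330759-73331058 on the plus strand, that of Mrpl9 is chr3:94443086-94443385 on the plus strand, that of Mrpl46 is chr7:78783040-78783339 on the minus strand, and that of Mrps11 is chr7:78782881-78783180 on the plus strand.
Mrpl36: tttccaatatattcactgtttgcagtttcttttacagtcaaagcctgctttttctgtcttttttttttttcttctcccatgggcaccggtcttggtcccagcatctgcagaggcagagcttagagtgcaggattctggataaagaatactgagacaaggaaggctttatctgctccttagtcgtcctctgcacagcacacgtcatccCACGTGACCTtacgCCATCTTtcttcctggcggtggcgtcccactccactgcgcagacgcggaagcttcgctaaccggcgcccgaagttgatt
Mrpl9: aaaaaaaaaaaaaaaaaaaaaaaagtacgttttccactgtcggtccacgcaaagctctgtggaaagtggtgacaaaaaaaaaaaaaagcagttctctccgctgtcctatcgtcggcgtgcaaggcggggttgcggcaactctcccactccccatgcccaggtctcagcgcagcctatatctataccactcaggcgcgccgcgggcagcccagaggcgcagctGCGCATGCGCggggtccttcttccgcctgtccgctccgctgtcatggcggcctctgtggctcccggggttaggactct
Mrpl46: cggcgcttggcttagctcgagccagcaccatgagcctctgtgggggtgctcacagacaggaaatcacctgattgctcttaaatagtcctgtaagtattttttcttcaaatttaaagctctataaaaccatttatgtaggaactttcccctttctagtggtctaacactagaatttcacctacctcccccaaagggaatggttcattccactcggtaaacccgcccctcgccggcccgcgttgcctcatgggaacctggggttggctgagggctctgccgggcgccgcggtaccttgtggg
Mrps11: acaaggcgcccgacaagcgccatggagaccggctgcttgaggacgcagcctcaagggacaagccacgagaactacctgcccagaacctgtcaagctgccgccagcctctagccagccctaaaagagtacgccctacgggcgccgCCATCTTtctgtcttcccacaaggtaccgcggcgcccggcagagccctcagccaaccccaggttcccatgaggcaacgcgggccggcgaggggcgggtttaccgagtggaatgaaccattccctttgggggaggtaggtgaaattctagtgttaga

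The window of Mrpl36 held an E-box that starts 43 bases before the RefSeq transcription start, at position -43. It was overlapped by an AGGTCA match on the other strand at -39 and followed by an AAGATGG match at -29. In the GENCODE annotation, Mrpl36 extends from 73328513 to 73332178, so its window (73330759 to 73331058) lies inside the annotated gene and away from that start. In Mrpl9, matches to GCATGCGC started at -28 and -26 and overlapped each other, because the motif can be read from both strands. Mrps11 had an AAGATGG match at -106 and Mrpl46 had none of the 7 motifs. Over all members, CACGTG was in 5 of 68 windows (7.35%), those of Mrpl2, Mrpl20, Mrpl36, Mrpl37, and Mrps18c, beside 9.92% of the 11416 windows of retained genes. Of the windows of lower members, 2 of 15 held it, and of higher members, 0 of 20. CCGGAAG was in 24 of 68 member windows (35.3%) and 17.0% of all windows, AAGATGG in 13 (19.1%) and 6.94%, and GCATGCGC in 8 (11.8%) and 4.97%. AGGTCA was in 10 (14.7%) and 12.5%, CACGTT in 4 (5.88%) and 5.34%, and TTATGTAA in 0 and 0.587%. In windows of lower and of higher members, CCGGAAG was in 7 of 15 and 4 of 20, and GCATGCGC in 0 and 4. AGGTCA was in 4 and 2 of these windows, AAGATGG in 3 and 4, and CACGTT in 2 and 1. These splits by direction were not tested. A match is a description of these letters and not evidence of binding.

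Short distances to a neighbouring gene were common. The start of 29 of 77 members (37.7%) lay within 1000 bases of the start of a protein-coding gene on the opposite strand, beside 1892 of 13704 retained protein-coding genes (13.8%). Mrpl46 and Mrps11 were such a pair, with starts 412 bases apart, and neither was called (log2 fold changes of 0.04 ± 0.03 and 0.07 ± 0.04, SE). These distances use the gene starts of GENCODE, which differ from the RefSeq starts of the 2 windows printed above for this pair. The members formed 28 distinct pairs, and both genes were called in 5 of them (17.9%), beside 24.7% of the 949 pairs of retained protein-coding genes. In 3 of the 5 both moved in the same direction (60%), beside 70.5% over all such pairs. Mrpl47 (-0.10 ± 0.03) and Ndufb5, a subunit of complex I (-0.11 ± 0.02), were both lower, whereas Mrpl32 (0.11 ± 0.02) was higher and Psma2, a proteasome subunit 75 bases away, was lower (-0.12 ± 0.02, SE).

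The members were also divided by their place in the mitoribosome, by lists written from textbook knowledge. Among large subunit proteins with a bacterial counterpart, 5 of 30 were higher and 9 were lower. Among large subunit proteins without one, 7 of 20 were higher, including Mrpl45 and Mrps30, and 3 were lower, including Mrpl42. Of the small subunit, 3 of 16 proteins with a bacterial counterpart were higher and 3 lower, and 6 of 10 mitochondria-specific proteins, Mrps35 among them, were higher and 1 lower. The median log2 fold changes of these 4 lists were -0.0045, 0.04, 0.0070, and 0.08, beside 0.012 over all genes, of which 26.8% were higher and 23.2% lower. Differences between lists were not tested.

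Within the large subunit, none of 4 tested proteins of the stalk region was called, at log2 fold changes from -0.07 to 0.04. At the tunnel exit, 2 of 6 were higher (Mrpl45 and Mrpl17) and 1 was lower (Mrpl47). The call of Mrpl17 (0.06 ± 0.02, SE, edgeR adjusted p = 0.0129) was lost in 5 of 14 alternative analyses, and without replicate 5 of each group its value was 0.04 (adjusted p = 0.0831). In the central protuberance, 1 of 8 was higher (Mrpl40) and 2 were lower (Mrpl18 and Mrpl27). The share called among all genes was 50%.

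Higher members were more frequent among those with long mRNAs. When members were ordered by the median length of their coding transcripts, 1 of the 26 shortest (405 to 815 nucleotides) was higher and 7 were lower. Of the middle 26 (846 to 1424 nucleotides), 6 were higher and 4 lower, and of the 25 longest (1462 to 6073 nucleotides), 14 were higher and 6 lower. The medians of the log2 fold change were -0.02, 0.0092, and 0.07. Among all genes in the same length ranges, 26.3% were higher and 25.7% lower in the shortest, and 27.99% and 24.3% in the longest. As a description across genes, which share libraries and are not independent, Spearman's rho of log2 fold change with length was 0.43 over 77 members, 0.27 over 77 cytoplasmic ribosomal protein genes, 0.27 over 82 nuclear genes of oxidative phosphorylation (OXPHOS), and 0.03 over 13702 genes with a length.

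**Figure D3:**
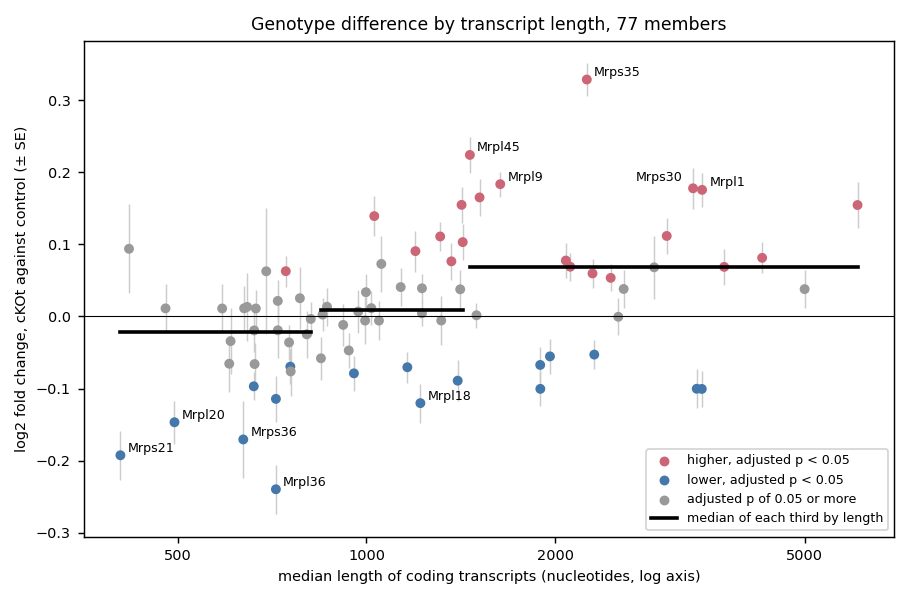
The log2 fold change of each member (y axis, with SE) is plotted against the median length of its coding transcripts in nucleotides (x axis, log scale), and black lines give the median of the 26 shortest, the middle 26, and the 25 longest members. The medians go from -0.02 to 0.0092 and 0.07, and 7 of the 8 called members among the shortest are lower.

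For 39 members the difference did not pass the threshold, and for 28 of them the 95% interval of the log2 fold change lay within -0.1 and 0.1. Mrpl12 was 79.7 to 154 CPM in control and 65.9 to 145 CPM in cKOt mice, and its log2 fold change was -0.0056 (95% interval -0.07 to 0.06). For Mrps12, a protein of the decoding centre, it was -0.02 (-0.09 to 0.06). Mrpl58, the ribosome rescue factor that became a large subunit protein, had -0.00045 (-0.05 to 0.05). For these 3, a mean difference of 1.2-fold in either direction lay outside the interval.

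The 3 paralogs Mrps18a, Mrps18b, and Mrps18c derive from a common ancestor but occupy different sites, Mrps18a in the large and the others in the small subunit. In control mice their levels per kilobase were 46.9 ± 3.18, 21.4 ± 1.49, and 15.1 ± 2.02 CPM (SD, n = 30 each), with each above the next by more than its SD. None was called between genotypes. Their log2 fold changes were -0.04 (95% interval -0.08 to 0.01), -0.02 (-0.09 to 0.04), and 0.01 (-0.05 to 0.07).

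At single time points, the number of members past the threshold was lower than over the mean. At ZT0, 8 members were higher and 1 was lower, beside 6.63% and 5.49% of all genes. At ZT4 they were 6 and 2 (6.2% and 6.34%), at ZT8 5 and 2 (10.6% and 9.28%), and at ZT12 4 and 8 (10.3% and 10.7%). At ZT16, 10 were higher and 1 was lower (10% and 9.75%), and at ZT20 2 and 5 (5.98% and 7.79%). The median log2 fold change over the members was 0.04 at ZT0, -0.04 at ZT12, and 0.05 at ZT16, beside 0.017, 0.0028, and 0.016 over all genes.

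A test of unequal genotype differences over the 6 time points (interaction, edgeR's quasi-likelihood test) called 0 of 77 members, beside 3.08% of all genes, and limma called 0 as well. With unadjusted p below 0.05 there were 3 members, Mrpl17, Mrpl4, and Mrpl55, beside 14.7% of all genes. The lowest adjusted p was 0.20, for Mrpl17. The numbers at single time points therefore do not show that any member responded differently between times.

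For rhythms, each transcript was assigned to 1 of 5 models with a period of 24 h when its BIC weight was at least 0.65. No rhythm in either genotype (model 1) was assigned to 29 of 77 members, beside 34% of all genes, and 23 stayed unassigned (28.7% of all genes). The same rhythm in both genotypes (model 4) was assigned to 22 members (28.6%), beside 25.2% of all genes. A rhythm in control mice alone (model 2) was found for 1 member (6.25% of all genes) and in cKOt mice alone (model 3) for 2 (3.42%). Model 5, in which both are rhythmic but differ, was found for 0 (2.37%). In total, models with a rhythm in control mice held 23 members and those with a rhythm in cKOt mice held 24, beside 33.9% and 31% of all genes.

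The peaks of the shared rhythms lay close together. Of the 22 members of model 4, 19 peaked between ZT19.2 and ZT22.7, in the late dark phase, whereas 40.9% of all genes of model 4 peaked between ZT18 and ZT24. The other 3 peaked in the light phase, Mrpl2 at ZT7.3, Mrps9 at ZT7.6, and Mrpl24 at ZT10.9. Amplitudes from peak to trough were low, 0.10 to 0.33 on the log2 scale with a median of 0.17, beside a median of 0.27 over all genes of model 4. Of these 22 members, 7 were also higher and 7 lower in mean expression in cKOt mice, beside 26.8% and 23.2% of all retained genes. The shares among all genes of model 4 were not taken. For 11 of the 22, all 13 alternative analyses gave model 4, and this was not counted over all genes.

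**Figure D4:**
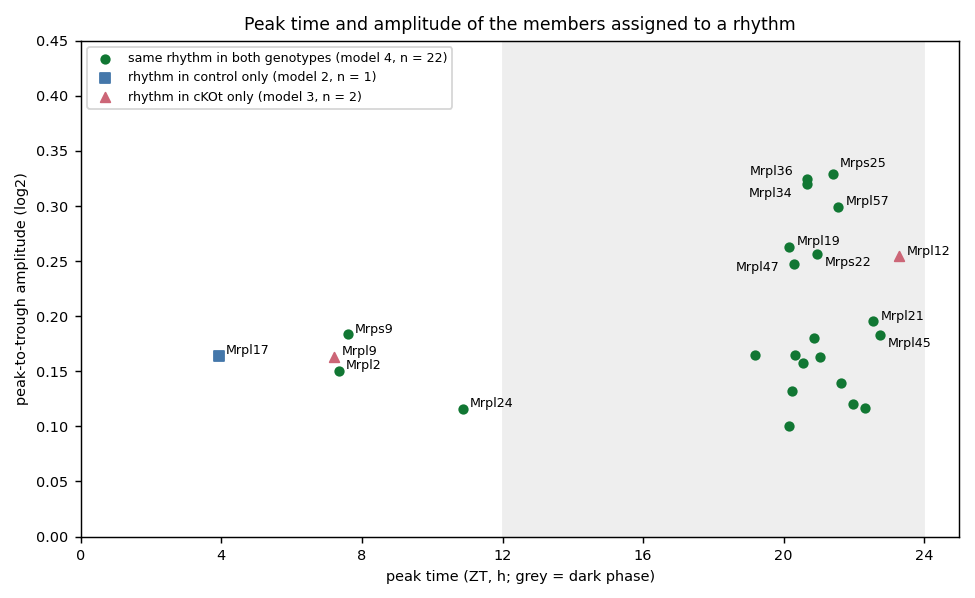
The peak-to-trough amplitude (y axis, log2) of each member with a rhythm is plotted against its peak time (x axis, ZT in h), with the dark phase in grey. Of 22 members with the same rhythm in both genotypes, 19 peak between ZT19.2 and ZT22.7, and the amplitudes are at most 0.33.

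Mrps25, a mitochondria-specific small subunit protein, had the largest amplitude in the fit shared by both genotypes (0.33, peak at ZT21.4, BIC weight 0.98). In control mice it was 26.5, 26.3, 28.6, 26.5, and 27.0 CPM at ZT20 and 23.4, 23.6, 22.1, 21.2, and 21.3 CPM at ZT8, without overlap. In cKOt mice it was 29.1, 29.8, 30.1, 29.3, and 31.3 CPM at ZT20 and 24.8, 24.8, 27.9, 21.3, and 26.3 CPM at ZT8, again without overlap. In fits by genotype its amplitude was 0.32 in control and 0.34 in cKOt mice, where Mrpl36 (0.33) and Mrpl34 (0.35) were larger in turn. Its log2 fold change of mean expression was 0.15 ± 0.03 (SE, edgeR adjusted p = 5.5e-05). Exons of Nr2c2 on the opposite strand cover 69.8% of the exon bases of Mrps25. The setting for strand in counting is not given in the sources used here, and the log2 fold change of Nr2c2 was 0.03 ± 0.03 with a fitted amplitude of 0.06 over both genotypes.

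Mrpl36, Mrpl34, and Mrpl57 followed with amplitudes of 0.32, 0.32, and 0.30 and peaks at ZT20.7, ZT20.7, and ZT21.6. Mrpl34 is a large subunit protein with a bacterial counterpart, and Mrpl57 is mitochondria-specific. In control mice Mrpl36 had 23.6 ± 1.43 CPM at ZT0 and 19.5 ± 1.32 CPM at ZT8, and in cKOt mice 18.9 ± 0.979 and 16.6 ± 1.17 CPM (SD, n = 5 each). The lower mean and the kept rhythm of Mrpl36 were thus seen in the same mice. Mrpl57 had only 119 to 284 counts per mouse and Mrpl34 144 to 409.

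Mrpl17, a protein of the tunnel exit, was the member of model 2 (BIC weight 0.90), with a peak at ZT3.9 and an amplitude of 0.16 in control mice against 0.07 in cKOt mice. In control mice it was 36.4, 33.0, 33.0, 35.1, and 34.3 CPM at ZT4 and 35.3, 30.5, 29.0, 28.6, and 28.6 CPM at ZT16. The control mouse with 35.3 CPM stood apart from the other 4 at ZT16. In cKOt mice it was 28.1 to 36.0 CPM at ZT4 and 32.6 to 37.6 CPM at ZT16. The test of a difference between the rhythms gave an adjusted p of 0.066 by edgeR's quasi-likelihood test.

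Mrpl9 and Mrpl12 were the members of model 3, with BIC weights of 0.94 and 0.90. The amplitude of Mrpl9 was 0.16 in cKOt mice, with a peak at ZT7.2, and 0.05 in control mice. Mrpl12 had an amplitude of 0.25 in cKOt mice, with a peak at ZT23.3, and 0.03 in control mice. Of 13 alternative analyses, 9 gave model 3 for Mrpl12. In cKOt mice Mrpl12 was 120.8, 142.8, 123.0, 131.2, and 134.1 CPM at ZT0 and 68.0, 100.2, 99.6, 115.0, and 77.7 CPM at ZT12, without overlap. The mice with 68.0 and 77.7 CPM had 7.58% and 7.85% of reads outside genes, beside 5.89% to 7.32% in the other cKOt mice at ZT12. The part of this in the low values was not tested. In control mice the Mrpl12 ranges of 109 to 125 CPM at ZT0 and 79.7 to 132 CPM at ZT12 overlapped. For the difference between rhythms, the adjusted p was 0.17 for Mrpl9 and 0.36 for Mrpl12 by edgeR's quasi-likelihood test.

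A separate test of a 24 h cosine and sine in each genotype (edgeR's quasi-likelihood test) called 21 members in control mice and 19 in cKOt mice, beside 33.1% and 28.2% of all genes. These counts depended on the correction for unwanted variation, since they were 8 and 9 without RUVs factors and 7 and 8 with library batch in their place. Without replicate 2 or replicate 5 of each group, 13 and 12 members were called in control mice. Counts over all genes were not taken under these settings, so whether the falls are particular to the members cannot be told. The test of a difference in rhythm called 0 members, beside 4.35% of all genes, and with unadjusted p below 0.05 it called 6, beside 15.3% of all genes. No other tool was run for this test. The assignment of Mrpl17, Mrpl9, and Mrpl12 to models with a rhythm in a single genotype is thus not backed by a test of the difference.

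Members varied together between mice of a group to a limited degree. After removal of group means, the median correlation between 2 members over the 60 mice was 0.23, between 2 cytoplasmic ribosomal protein genes 0.28, and between 2 nuclear OXPHOS genes 0.31. Members correlated about as much with cytoplasmic ribosomal protein genes (0.22) and with nuclear OXPHOS genes (0.25) as with each other. Between members and all retained genes it was -0.0063. The highest pairs were Mrpl12 with Mrpl14 (0.92), Mrpl12 with Mrpl2 (0.91), and Mrpl2 with Mrpl28 (0.91). These mRNAs share libraries and a GC content of 56.1% to 59.4%, above the median of 50.4% over the members. Mrps18a, at 0.46, had the highest median correlation with the other members. These values are descriptions, and they carry no test.

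The other genes of mitochondrial translation were examined by the same test. Among 5 mitoribosomal proteins with other symbols, 2 were higher in cKOt mice and 0 were lower. Dap3, a GTP-binding small subunit protein, averaged 66.8 ± 4.25 CPM without and 76.0 ± 5.13 CPM with the deletion (n = 30 each, SD). Its log2 fold change was 0.19 ± 0.02 (SE, edgeR adjusted p = 2.4e-09). Ptcd3, another small subunit protein, had 0.06 ± 0.02. Of 27 assembly factors 12 were higher and 3 lower, with the largest differences for the methyltransferase Mettl15 (0.24 ± 0.04) and the pseudouridine synthase Rpusd4 (0.20 ± 0.03, SE).

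Of 16 translation factors, 5 were higher and 5 lower. Gfm1, the elongation factor that moves the ribosome along the mRNA, was 164 to 221 CPM in control and 128 to 171 CPM in cKOt mice, with little overlap. Its log2 fold change of -0.33 ± 0.02 (SE, n = 30 each, edgeR adjusted p = 2.7e-20) was as large as that of Mrps35 in the opposite direction. Oxa1l, the insertase that receives new proteins at the inner membrane, was higher (0.19 ± 0.02, SE). Of 20 mitochondrial aminoacyl-tRNA synthetases 9 were higher and 1 lower, led by Pars2 (0.35 ± 0.04) and Wars2 (0.25 ± 0.03, SE). In these lists the backgrounds of 26.8% higher and 23.2% lower apply as well.

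Of 5 genes of mitochondrial transcription 0 were higher and 3 lower, among them the termination factor family member Mterf2 (-0.19 ± 0.05) and the elongation factor Tefm (-0.08 ± 0.03, SE). Among 10 regulators of mitochondrial biogenesis, 2 were higher and 4 lower. Myc, a growth-related transcription factor, was 1.66 to 15.3 CPM in control and 2.11 to 16.9 CPM in cKOt mice (log2 fold change 0.74 ± 0.12, SE, edgeR adjusted p = 1.2e-06). Perm1, a muscle-enriched regulator of mitochondrial genes, had -0.21 ± 0.07 (SE).

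The tested mRNAs among those that the mitoribosome translates were lower. All 7 of the tested mitochondrially encoded mRNAs fell, with log2 fold changes from -0.69 to -0.25 and a median of -0.44. The largest decreases were those of mt-Nd6, a complex I subunit, with 18.2 to 73.5 CPM in control and 11.9 to 41.2 CPM in cKOt mice (-0.69 ± 0.11), and of mt-Nd5, with 13978 ± 1471 and 10150 ± 1679 CPM (SD, n = 30 each), at -0.47 ± 0.04 (SE) on the log2 scale. For mt-Nd5 the adjusted p was 5.1e-15 and for mt-Nd6 4.3e-07 (edgeR). The other 6 of the 13 had 0 to 6 counts in any mouse and were not tested. Because mt-Co1 reached 786399 counts in a mouse, counts this low are not taken as levels of these mRNAs. Reads with several alignments were left out of the counts, and their part in this was not tested.

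**Figure D5:**
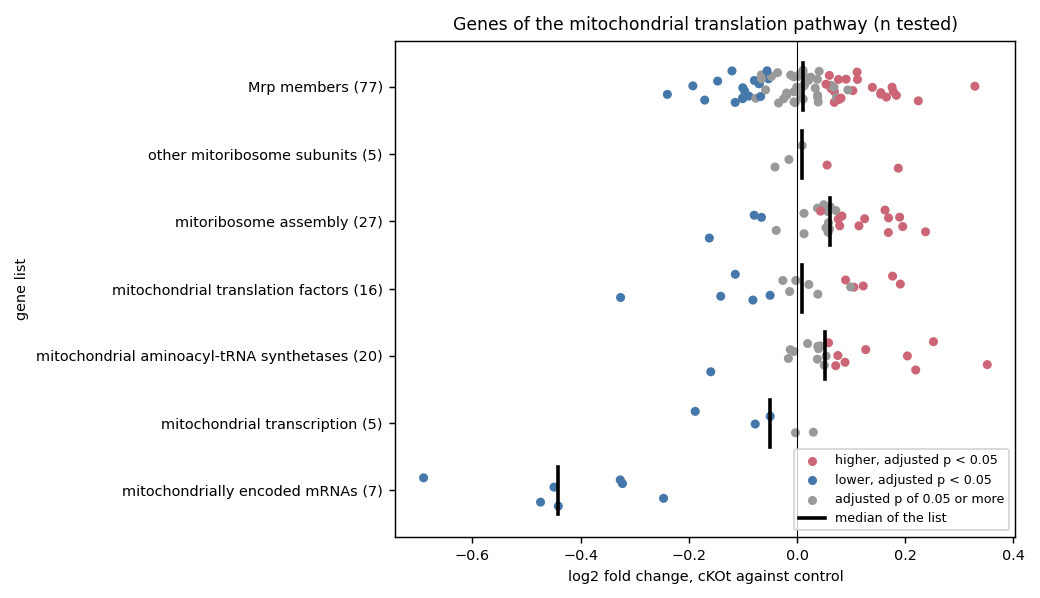
The log2 fold change of each gene (x axis) is plotted for the 77 members and 6 lists of the mitochondrial translation pathway (y axis), with the median of each list as a black line. The members scatter around a median of 0.011, and all 7 tested mitochondrially encoded mRNAs lie at or below -0.25.

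Beside 2 related groups of genes, the members split more evenly. Of 77 cytoplasmic ribosomal protein genes, 52 were higher in cKOt mice and 0 were lower, with a median log2 fold change of 0.11. Of 82 nuclear OXPHOS genes, 3 were higher and 42 lower, with a median of -0.07. The members had 21 and 17 with a median of 0.011. Model 4 was assigned to 3 of the cytoplasmic ribosomal protein genes, to 12 of the OXPHOS genes, all of which peaked between ZT18 and ZT24, and to 22 members. Differences between these groups were not tested.

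Limits of single members follow from the annotation. Mrpl53 had 0 counts in all 60 samples and is not a member, and exons of Gm42688 on the same strand cover 88.0% of its exon bases, so that reads there could not be told apart. The same holds in part for Mrps34, with 37.0% shared with Nme3, and Mrps6, with 30.3% shared with Slc5a3 and Gm49711. Mrps18c shares 23.2% with Gm43511 and Mrps24 15.4% with Urgcp. The pseudogene Mrpl48-ps reached 5.62 CPM, and reads that align to both it and Mrpl48 are left out of the counts. Levels of these members are uncertain.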

How the data were processed

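RNA-Seq was performed by the authors on mouse kidneys with stranded poly(A) libraries and single reads. The 60 mice used here are those the authors selected from a larger set by RNA integrity and distance from replicates in PCA or MDS plots. Per the labels, reads were trimmed with cutadapt (version 1.8), aligned with STAR (version 2.5.3a) to GRCm38, and counted with HTSeq (version 0.9.1). The deposited values are counts per Ensembl gene, without normalization or pooling. The 5 lines of the counting program that name no gene were left out, with 5.19% to 7.87% of reads outside genes, 0.708% to 0.927% ambiguous, and 24.3% to 29.4% with several alignments. Reads outside genes were 5.19% to 6.72% in control and 5.89% to 7.87% in cKOt mice. Those with several alignments were 25.7% to 29.4% in control and 24.3% to 26.9% in cKOt mice. The part of these library differences in the genotype differences was not tested. The annotation release and the setting for strand are not given in the sources used here. Symbols, positions, and lengths were taken from GENCODE release M21, and the length of an mRNA is the median over the annotated coding transcripts of its gene.

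A gene was retained when any sample reached 1 CPM, libraries were scaled by TMM (factors 0.908 to 1.07), and 2 RUVs factors were used as covariates. Mean differences, their interaction with time, single time points, and 24 h harmonics were tested by the quasi-likelihood F test of edgeR 4.0.16 under R 4.3.3, with adjustment after Benjamini and Hochberg over all retained genes and a threshold of 0.05. Rhythm models followed dryR and were written anew with a BIC weight of at least 0.65. CPM are TMM-normalized without RUVs correction. Intervals of 95% are from the estimate and its SE. Replicates are separate mice, and p values rest on the spread between them that the 2 RUVs factors leave. These factors were estimated from the differences between mice of a group. The mice had been selected in part for closeness to their replicates. The procedure was tested on simulated data.

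Alternatives were DESeq2 (version 1.42.0) size factors or Wald test, limma-trend (limma version 3.58.1), other filters, other BIC weights, no RUVs factors or 1, library batch in their place, the replicate number as a block, the fits without 1 cKOt mouse at ZT16 that the sample sheet of the study marks for removal, and the fits without each replicate number. The sample sheet is a supplementary table of the paper, and that mouse was kept in all main results.

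Members named are the 5 largest increases and decreases in mean expression, those with an interaction (none), the 4 largest amplitudes in each genotype, the highest BIC weight of models 2, 3, and 5, the 3 highest and lowest levels per kilobase, Mrps18a, Mrps18b, Mrps18c, Mrpl12, Mrps12, Mrpl58, and Mrps36. From each pathway list the 2 largest called differences are named. Members named for neighbours, promoter windows, overlaps, correlations, or places in the ribosome were named after their values were seen. The members and the lists were chosen with earlier results of these data known.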

Additional observations from a re-analysis of the deposited data

Results flagged for a closer look

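Among 264 groups of 5 mice (22 named members in 12 groups), 18 had a mouse far from the other 4 by Dixon's criterion, and chance gives about 1 in 20. The members share libraries, so flags of the same mouse are not independent. High values in control mice were those of replicate 1 for Mrpl57 at ZT4 (11.8 CPM) and ZT12 (11.8 CPM), Mrps12 at ZT0 (14.1 CPM) and ZT16 (17.9 CPM), Mrpl34 at ZT0 (20.1 CPM), and Mrpl17 at ZT16 (35.3 CPM). Mrpl20 at ZT16 (77.4 CPM, replicate 4) and Mrps36 at ZT20 (18.9 CPM, replicate 2) were high as well. Low values in control mice were those of Mrpl12 at ZT20 (80.4 CPM, replicate 1), Mrps18c at ZT16 (9.44 CPM, replicate 1), and Mrps36 at ZT0 (11.1 CPM, replicate 4). The control mouse of replicate 1 at ZT16 was thus flagged for Mrps12, Mrpl17, and Mrps18c. In cKOt mice, Mrps18c at ZT4 (21.0 CPM) and Mrps36 at ZT20 (16.7 CPM) had a high mouse. Low cKOt mice were found for Mrpl36 at ZT16 (19.0 CPM), Mrpl42 at ZT0 (78.5 CPM), Mrpl45 at ZT20 (49.9 CPM), Mrps18b at ZT8 (18.4 CPM), and Mrps25 at ZT0 (27.7 CPM).

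The genotype difference of Myc varied between time points (interaction, edgeR's quasi-likelihood test, adjusted p = 0.000139). Its log2 fold change was 2.08 ± 0.32 at ZT12 and -0.70 ± 0.30 at ZT20 (SE, n = 5 mice of each genotype). The decrease at ZT20 did not pass the threshold (adjusted p = 0.125, edgeR's quasi-likelihood test), whereas the increases at ZT4, ZT8, and ZT12 did.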

How the results depend on the processing

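Over 14 alternative analyses, each of the 5 largest increases and 5 largest decreases kept its direction, and Mrps36 alone among them lost its call in 1. Of the 38 called members, 19 were called in every alternative, 12 higher and 7 lower. Of 308 values of the 22 named members, 289 kept direction and call and 6 kept the direction but lost the call, 5 of Mrpl17 (with batch, without RUVs factors, without a filter, and without replicate 3 or 5) and 1 of Mrps36. The other 13 changed sign, all of them values near 0 that were not called: Mrps18c with DESeq2 size factors (-0.00075), Mrpl58 without the mouse marked for removal (0.0019), and 11 when a replicate number was left out. Without a replicate, the log2 fold change ranged from -0.037 to 0.036 for Mrpl12, -0.042 to 0.11 for Mrpl23, -0.058 to 0.011 for Mrpl34, -0.029 to 0.018 for Mrpl58, -0.052 to 0.0058 for Mrps12, and -0.013 to 0.057 for Mrps18c. The number of higher members was 14 to 21 without a replicate, that of lower members 9 to 20, and the latter was 11 without RUVs factors. Over all genes, calls in either direction were 6781 to 7186 without a replicate and 6380 without RUVs factors, beside 7778 in the main fit. Without RUVs factors the 24 h test called 8 members in control and 9 in cKOt mice, and with batch 7 and 8. Without a replicate it called 12 to 18 and 13 to 18, and the cause was not tested. For the 24 h test, counts over all genes were not taken under these settings. Replicate numbers do not pair the mice, with a mean correlation of residuals of 0.0043 between mice that shared a number (330 pairs) and -0.0010 between the others (1320 pairs). With the replicate number as a block, 21 members were higher and 17 lower, 0 had an interaction, and the 24 h test called 21 and 17. At 11 to 37 counts, Mrpl23 had the widest interval among the named members that were not called.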
